A study of Drosophila melanogaster with 4 samples.

Results

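The broad RNA polymerase II (Pol II) regions described here were the regions of 1000 bp or more in the whole-series list of enriched regions, chosen by their measured width alone, counted from the first to the last base. They numbered 310 of 4366, or 7.10%, and the other 4056 regions were narrower. The width came from the same data that called the regions, so counts, widths and the make-up of the broad regions are descriptions of what was selected and not tests. The lists come from Pol II ChIP-seq (chromatin immunoprecipitation followed by sequencing) in whole Drosophila melanogaster embryos, mixed over 0 to 24 h of development. Chromatin from 2 extractions, here replicate 1 and replicate 2, was precipitated with CTD4H8, a mouse monoclonal antibody against the repeated carboxyl-terminal tail of the largest Pol II subunit. No genotype, treatment or age class within the collection is given in the labels, and the 2 input samples were not used here, which leaves the values without a measured background. Whole embryos mix all tissues and stages, and strong Pol II in few cells cannot be told apart from weak Pol II in many.

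Pol II binds at promoters, where it starts transcription, and then moves through the gene body to make the transcript. In flies many developmental genes carry Pol II that pauses shortly after the start, which gives a short focal ChIP-seq signal, whereas genes under active elongation carry it along the transcribed stretch. A wide enriched region can also arise where neighbouring start sites lie close together, and a region list alone does not separate these cases.

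Each extraction had its own list, with 5763 regions covering 1267 kb in replicate 1 and 8872 regions covering 2573 kb in replicate 2, and 124 and 294 of these were at least 1000 bp wide. The lists carry no read counts, so sequencing depth is unknown. With a single list per extraction, spreads are over regions and not over further embryos, and exact binomial (Clopper-Pearson) 95% intervals cover counting error only. Positions are on FlyBase r5.1 and count from 1. They were not matched to genes or sequence, because no genome or gene annotation of that release was used here.

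Broad regions had a median width of 1291.5 bp, with quartiles of 1114.25 and 1598 bp and a longest region of 5172 bp. Of the 310, 141 were 1000 to 1249 bp wide, 68 were 1250 to 1499 bp, 68 were 1500 to 1999 bp and 33 were 2000 bp or more. The 3 just inside the limit were a 2R region of 1001 bp (7339383 to 7340383), an X region of 1007 bp (4578494 to 4579500) and a 3L region of 1007 bp (5759074 to 5760080). Their authors' scores were 3.24 in replicate 1 and 2.80 in replicate 2 for the 2R region, 1.69 and 1.94 for the X region, and 1.67 and 1.75 for the 3L region. Just outside the limit were an X region of 999 bp (16531856 to 16532854) and 3R regions of 998 bp (16078390 to 16079387) and 997 bp (16152793 to 16153789). Their scores were 2.82 in replicate 1 and 3.11 in replicate 2, 4.09 and 2.81, and 1.95 and 2.36, in that order, so scores on both sides of the limit overlapped.

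Replicates differed in how much of a broad region they called. Of the 310, 104 (33.5%) held a region of at least 1000 bp in both replicates, 173 (55.8%) in replicate 2 only, 18 (5.81%) in replicate 1 only and 15 (4.84%) in neither. In the last group, 12 of the 15 were made by joining several regions of a replicate. Replicate 2 covered more bases than replicate 1 in 264 of 310 broad regions. Narrower regions also differed in this direction. Replicate 1 covered a median of 74.0% of the width in broad and 68.0% in narrower regions, and replicate 2 covered 100% in both. The bases covered by both replicates reached 1000 bp in 127 of the 310 broad regions (95% interval 35.4 to 46.7%).

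Joining was far more frequent among broad regions than among narrower ones. Several regions of a replicate were joined in 128 of 310 broad regions (41.3%, 95% interval 35.8 to 47.0%), against 135 of 4056 narrower regions (3.33%, 2.80 to 3.93%). Joining can make a region wider, but 295 of the 310 broad regions already held a single replicate region of at least 1000 bp. For most broad regions joining was thus not needed to reach the limit. The usual form was 2 regions of replicate 1 under 1 region of replicate 2, found in 84 broad regions. A further 17 had 3 regions of replicate 1 under 1 of replicate 2, and 14 had 1 region of replicate 1 with 2 of replicate 2. The gaps closed in this way were short. Replicate 1 had 127 of them with a median of 268 bp (200 to 983 bp), and replicate 2 had 36 with a median of 245 bp (200 to 506 bp). A single region of the other replicate spanned 127 of the 127 replicate 1 gaps and 36 of the 36 replicate 2 gaps. In narrower regions it spanned 115 of 115 and 24 of 24. Whole-series regions began and ended at the ends of overlapping replicate regions, so this spanning follows from how they were joined.

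**Figure D1:**
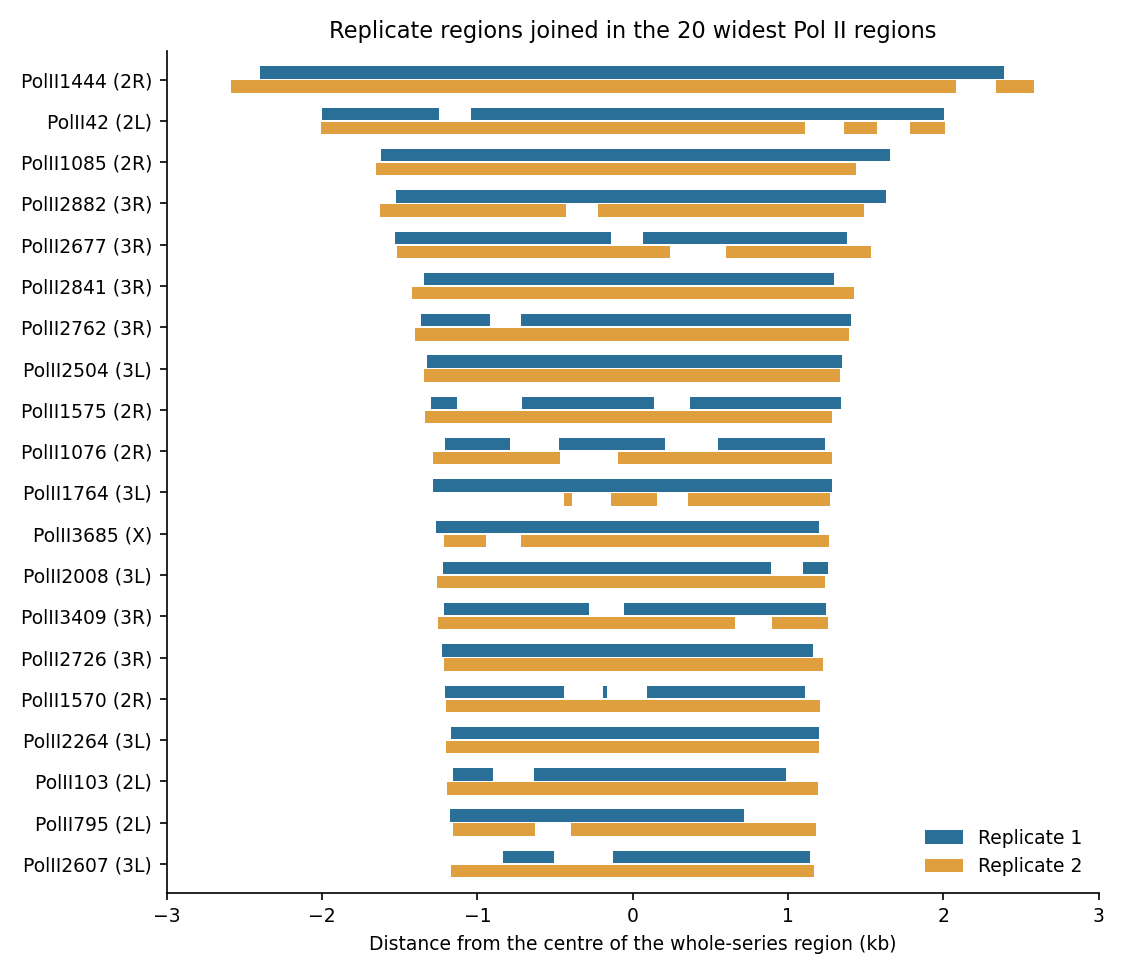
Replicate regions that make up the 20 widest whole-series regions, drawn as bars against distance in kb from the centre of each region, with replicate 1 in blue above replicate 2 in orange and the widest region at the top. A single region of each replicate made up 5 of the 20, and breaks in the bars of the others show the gaps that the other replicate spans.

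The map of the 20 widest regions shows both forms. The widest, 5172 bp on 2R (15998673 to 16003844), was a single region of replicate 1 and 2 regions of replicate 2, and both replicates covered 4535 bp of it. The next, 4019 bp on 2L (870414 to 874432), was joined from 2 regions of replicate 1 and 3 of replicate 2, with 3329 bp in both. A single region of each replicate made up the 2R region at 7779496 to 7782803, of which both covered 3057 of 3308 bp. Regions on 3R (7047417 to 7050672) and 3L (19683576 to 19686268) followed, with 2805 and 2657 bp in both. All 5 of these, the broad regions with the most bases in both replicates, held a region of at least 1000 bp in each replicate.

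The most pieces were joined in 5 broad regions with 5 replicate regions each, 1 of them the 2L region above. The others were on 2R (7509228 to 7511795, 3 of replicate 1 and 2 of replicate 2), 3R (12917703 to 12919981, 1 and 4), 3R (11247670 to 11249237, 1 and 4) and 2L (6094179 to 6095453, 2 and 3). In both of the 3R regions replicate 1 was continuous and replicate 2 broken. Replicate 2 covered 1250 of 2279 bp of the first and 369 of 1568 bp of the second, against 2140 and 1550 bp in replicate 1.

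At the other end, 19 broad regions (6.13%) had under 10% of their width in both replicates. The lowest overlaps were 3 of 1049 bp on 2R (19569106 to 19570154), 7 of 1726 bp on 3R (23525327 to 23527052), 11 of 1519 bp on 2R (3849927 to 3851445), 9 of 1150 bp on X (13084609 to 13085758) and 37 of 2166 bp on 3L (3194532 to 3196697). In all 5 a wide replicate 2 region met a replicate 1 region of at most 37 bp, so their width rested on replicate 2 alone. Scores in them were not all low: the 2R region at 19569106 had 3.67 in replicate 1 and 6.18 in replicate 2. A score of so short a replicate 1 region describes only those bases. Low overlap was not particular to broad regions. The 10th percentile of the share of width in both was 17.4% in broad and 18.6% in narrower regions.

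The share of width in both replicates had a median of 68.2% (quartiles 40.8 and 88.3%) in broad regions, against 63.4% (39.5 and 79.6%) in narrower ones. The difference did not follow the limit. Medians were 61.8% under 200 bp, 68.75% at 200 to 499 bp, 43.7% at 500 to 749 bp and 50.3% at 750 to 999 bp. Broad classes had 62.7% at 1000 to 1249 bp, 66.6% at 1250 to 1499 bp, 75.5% at 1500 to 1999 bp and 84.5% at 2000 bp or more. At least 90% of the width lay in both in 73 broad regions (23.5%, 95% interval 18.9 to 28.7%), against 318 narrower ones (7.84%, 7.03 to 8.71%). Replicate 2 covered the whole width of 177 broad regions (57.1%, 51.4 to 62.7%), against 3196 narrower ones (78.8%, 77.5 to 80.0%). Replicate 1 did so in 10 broad regions (3.23%, 1.56 to 5.85%), against 192 narrower ones (4.73%, 4.10 to 5.43%). Of the 620 ends of broad regions, 480 (77.4%) were set by replicate 2, 135 (21.8%) by replicate 1 and 5 by both, against 86.5% and 12.8% of 8112 ends set by replicate 2 and by replicate 1 in narrower regions. Replicate 1 ends were thus more frequent among broad than narrower regions, though replicate 2 set most ends in both sets.

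**Figure D2:**
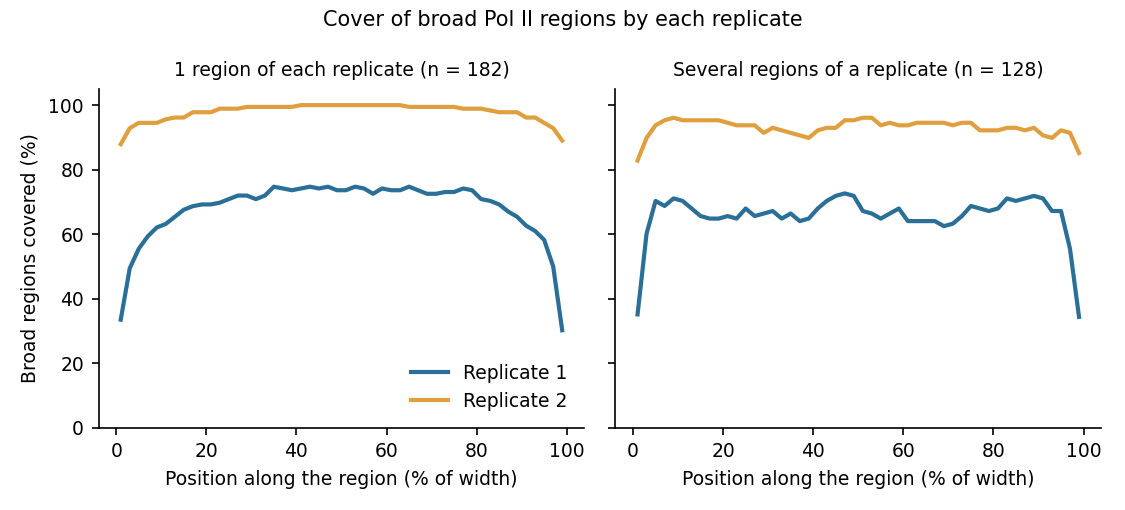
Percent of broad regions covered by regions of replicate 1 (blue) and replicate 2 (orange), against position along the region as a percent of its width, for 182 broad regions made of a single region of each replicate (left) and 128 joined from several regions of a replicate (right). Cover by replicate 1 drops at both ends in both panels, and among single regions replicate 2 covers all 182 at the middle. The ends are those of the joined replicate regions, most of them set by replicate 2.

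Along the broad regions, both replicates covered the middle more often than the ends. Over all 310, replicate 1 covered 34.2% of regions at 1% of the width and 72.9% at 49% of the width, against 85.8% and 98.1% for replicate 2. Lower cover at the ends follows from how regions were joined, because each end is a replicate end and replicate 1 alone set 21.8% of them. Replicate 2 covered the full width of 117 of the 182 single regions. There replicate 2 ran past the replicate 1 region by a median of 38 bp at the end with the shorter overhang (quartiles 14 and 148 bp) and 411 bp at the other end (79 and 750 bp). At least 90% of the overhang lay at one end in 39 of these, of which 21 had it at the higher coordinate, and 24 had it split between 40% and 60%.

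The authors' score, whose name and unit the lists do not give, was compared between replicates for the same region and ranked within chromosomes. Medians in this paragraph pool all chromosomes. In broad regions it had a median of 2.73 (quartiles 2.06 and 3.60) in replicate 1 and 3.07 (2.36 and 4.15) in replicate 2, against 2.59 (2.03 and 3.56) and 3.15 (2.22 and 4.63) in narrower regions. The log2 ratio of replicate 2 over replicate 1 had a median of 0.17 (SD over regions 0.54, n = 310 regions) in broad regions and 0.21 (SD over regions 0.67, n = 4056 regions) in narrower ones. Replicate 2 scored higher in 200 broad regions (64.5%), against 2639 narrower ones (65.1%). Over all chromosomes the medians of both sets lay close, but single arms differed. On 2R the median log2 ratio was -0.01 in broad and 0.19 in narrower regions, and replicate 2 scored higher in 76.1% of broad and 62.5% of narrower regions on 3L. The SD over regions did not follow the width limit. It was 0.80 under 200 bp, 0.64 at 200 to 499 bp, 0.59 at 500 to 749 bp and 0.56 at 750 to 999 bp. In the broad classes it was 0.49 at 1000 to 1249 bp, 0.48 at 1250 to 1499 bp, 0.66 at 1500 to 1999 bp and 0.58 at 2000 bp or more. The class of 1500 to 1999 bp includes 2 regions of the unplaced sequence U, with log2 ratios of 3.32 and 3.12. On X, 2L, 2R, 3L, 3R and 4 alone, the SD over regions was 0.48 in broad and 0.60 in narrower regions.

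**Figure D3:**
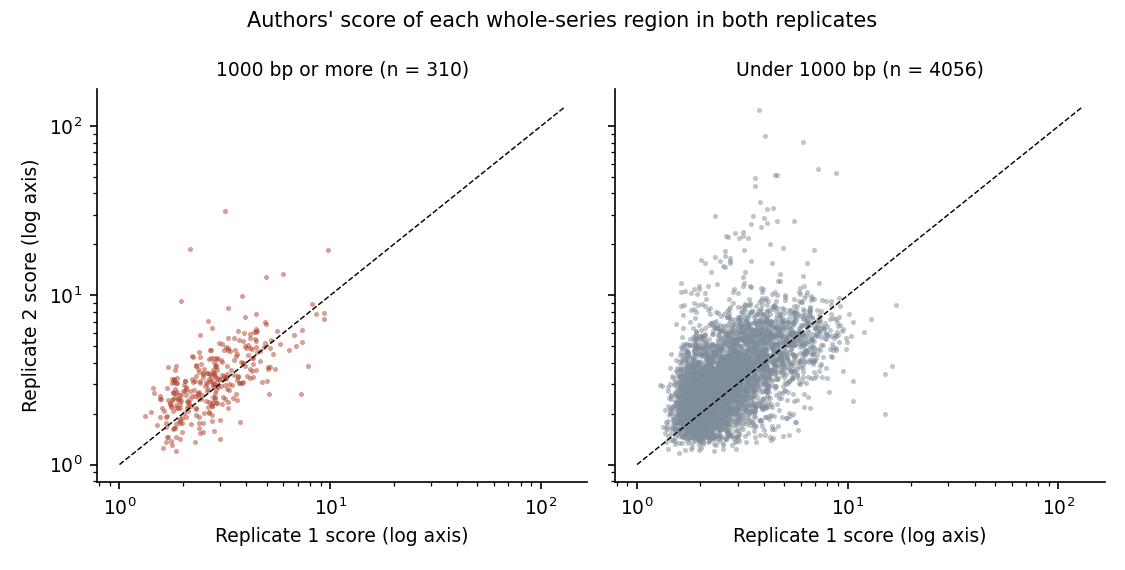
Authors' score in replicate 2 against replicate 1, both on log axes, for 310 regions of 1000 bp or more (left) and 4056 regions under 1000 bp (right), 1 point per region with a dashed line where both are equal. In both panels scores of the replicates go up together, and 2 broad regions of the unplaced sequence U, with replicate 2 scores of 31.7 and 18.9, lie high above the line.

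Agreement of the replicates in score differed among width classes on both sides of the limit. Spearman's correlation across regions was 0.67 over 310 broad regions and 0.54 over 4056 narrower ones, and Pearson's correlation of the log2 scores was 0.63 and 0.52. These are descriptions across regions that share the caller and the chromatin of 2 extractions, with no p. Broad regions had the higher Spearman value on all 5 large arms: 0.68 against 0.51 on X, 0.64 against 0.62 on 2L, 0.63 against 0.56 on 2R, 0.69 against 0.51 on 3L and 0.75 against 0.54 on 3R. The pooled value of narrower regions includes 1033 regions under 200 bp, where it was 0.29. In the other narrower classes it was 0.62 at 200 to 499 bp, 0.59 at 500 to 749 bp and 0.59 at 750 to 999 bp. The broad classes had 0.55 at 1000 to 1249 bp, 0.65 at 1250 to 1499 bp, 0.69 at 1500 to 1999 bp and 0.52 at 2000 bp or more. Broad classes thus lay both above and below the classes of 200 to 999 bp.

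The largest log2 ratios of replicate 2 over replicate 1 among broad regions were on U. The region at 4028247 to 4030000 had 3.18 in replicate 1 and 31.7 in replicate 2, and the U region at 1090210 to 1091762 had 2.17 and 18.9. U collects sequence not placed on a chromosome, and these were its only 2 broad regions, with log2 ratios of 3.32 and 3.12. By whole-series score they ranked at percentiles 79.3 and 43.1 among the 58 regions of U, so they were not its extremes. Narrower regions of the whole list reached a log2 ratio of 5.04. The 3L region at 3194532 had 1.95 and 9.24, with replicate 1 present in 37 of its bases. The 3R region at 11070087 to 11071930 had 2.63 and 7.07 and the 3L region at 13375804 to 13377023 had 4.96 and 12.9, each covered nearly throughout by both replicates.

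The opposite direction was led by 2L (16324427 to 16325680), with 7.27 in replicate 1 and 2.60 in replicate 2 and a log2 ratio of -1.48. It was followed by X (549031 to 550149) with 3.01 and 1.41, 3R (26212650 to 26213672) with 3.72 and 1.77, 3R (17681084 to 17682141) with 7.88 and 3.84, and 2R (13434889 to 13436030) with 5.11 and 2.62. In 4 of these 5 both replicates shared between 17.3% and 32.0% of the width. The exception was the 3R region at 17681084, with 96.5% in both.

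The scores may follow another scale on each chromosome, so each region was ranked by its score among all whole-series regions of its chromosome, on chromosomes with at least 20 regions. Broad regions had a median percentile of 50.5 (quartiles 27.2 and 73.0, n = 308 regions), against 50 (24.8 and 75.3, n = 3997 regions) in narrower ones. The upper 10% of a chromosome held 24 of 308 broad regions (7.79%, 95% interval 5.06 to 11.4%), against 410 of 3997 narrower ones (10.3%, 9.33 to 11.2%). The lowest 10% held 29 broad regions (9.42%, 6.40 to 13.2%), against 399 narrower ones (9.98%, 9.07 to 11.0%). In the whole-series list the ranks of both sets were thus centred alike. This did not hold in the replicate lists taken alone, where regions of 1000 bp or more had median percentiles of 76.5 in replicate 1 (n = 124 regions) and 65.4 in replicate 2 (n = 293 regions), against 49.4 in narrower regions of either list.

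Inside the broad set, wider classes ranked higher. Median percentiles were 35.5 at 1000 to 1249 bp, 55.2 at 1250 to 1499 bp, 56.7 at 1500 to 1999 bp and 75.6 at 2000 bp or more. Narrower classes had 44.1 under 200 bp, 59.6 at 200 to 499 bp, 39.9 at 500 to 749 bp and 40.75 at 750 to 999 bp. Spearman's correlation of width and percentile was 0.36 over broad regions and -0.05 over narrower ones. It was 0.35 over regions under 200 bp, and between -0.24 and 0.23 within the broad width classes. A rise of rank with width was thus not particular to broad regions. The regions wide in both replicates ranked above those wide in replicate 2 only. They had a median percentile of 74.0 (quartiles 56.0 and 86.3, n = 104 regions), and 86 of them (82.7%, 74.0 to 89.4%) were in the upper 50% of their chromosome. Those wide in replicate 2 only had a median of 34.6 (18.1 and 55.8, n = 171 regions), with 56 (32.7%, 25.8 to 40.3%) in the upper 50%. Both replicates gave the first class the higher scores, with medians of 3.55 in replicate 1 and 4.25 in replicate 2, against 2.38 and 2.62 in the second. The split into these classes used the widths of the same calls that carry the scores. These differences thus describe the classes and are not a test.

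The highest ranks within a chromosome were held by X (10108951 to 10110207), a region of 1257 bp with a score of 9.72 in replicate 1 and 18.5 in replicate 2. It was the top region of X, and both replicates covered 1245 bp of it. Another X region, at 10125182 to 10126484, had 5.98 and 13.3. On 3L the region at 13375804, described above, ranked at percentile 99.8.

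On 3R, the region of 2456 bp at 2061225 to 2063680 had 9.35 and 7.86, and that of 1607 bp at 2074636 to 2076242 had 8.21 and 8.95. Also on 3R, a region at 17122170 to 17123975 had 7.38 and 6.22 and a region of 2807 bp at 2912124 to 2914930 had 6.85 and 5.01. On 2R, the region at 5440057 to 5442012 had 9.33 and 7.20, that at 16832191 to 16834456 had 8.57 and 7.79, and that at 14424702 to 14426769 had 3.83 and 9.87. In 9 of these 10 regions both replicates covered at least 90% of the width.

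Broad regions had close neighbours more often than narrower ones did. The median gap to the nearest other whole-series region, edge to edge, was 1094 bp (quartiles 377 and 4292 bp, n = 309 regions) for broad regions and 5683 bp (1061.5 and 15789.2 bp, n = 4056 regions) for narrower ones. A neighbour lay under 1 kb away in 149 of 309 broad regions (48.2%, 95% interval 42.5 to 53.9%), against 987 of 4056 narrower ones (24.3%, 23.0 to 25.7%). Close neighbours on both sides were found in 32 broad regions (10.4%, 7.19 to 14.3%), against 168 narrower ones (4.14%, 3.55 to 4.80%). Gaps over 20 kb were found in 21 broad regions (6.80%, 4.26 to 10.2%), against 782 narrower ones (19.3%, 18.1 to 20.5%).

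The same order held on each large arm. Shares with a neighbour under 1 kb away were 43.5% of broad and 22.3% of narrower regions on X, 51.6% and 27.8% on 2L, 59.3% and 24.2% on 2R, 50.7% and 27.1% on 3L, and 38.9% and 19.6% on 3R. It also held in each replicate list alone, where no joining between extractions takes place. Among regions of replicate 1, 68.5% of the 124 of 1000 bp or more had such a neighbour (95% interval 59.6 to 76.6%), against 35.6% of narrower ones (34.3 to 36.8%). Among regions of replicate 2 the shares were 67.7% of 294 (62.0 to 73.0%) and 43.3% of narrower ones (42.3 to 44.4%).

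**Figure D4:**
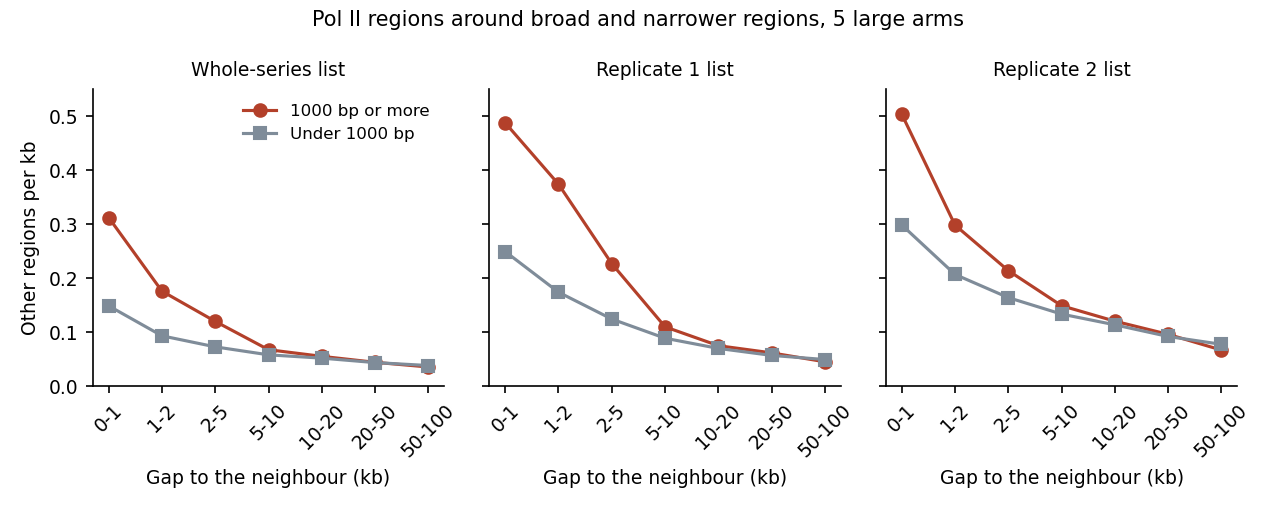
Other regions per kb at increasing gaps (in kb) from regions of 1000 bp or more (red circles) and regions under 1000 bp (grey squares) on the 5 large arms, in the whole-series list, the replicate 1 list and the replicate 2 list. The curves are farthest apart at gaps under 1 kb in the whole-series list, at 0.312 regions per kb around broad and 0.149 around narrower regions, and come together beyond 10 kb.

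Pooled over the large arms, the excess of neighbours was local. On the 5 large arms, broad regions had 0.312 other regions per kb at gaps under 1 kb, against 0.149 around narrower ones, a ratio of 2.10. The ratio was 1.88 at 1 to 2 kb, 1.65 at 2 to 5 kb, 1.16 at 5 to 10 kb, 1.06 at 10 to 20 kb and 0.929 at 50 to 100 kb. Under 1 kb, the ratio ran between 1.85 on 3R and 2.73 on 2R. It was 1.96 in the replicate 1 list, where it was higher at 1 to 2 kb (2.15), and 1.69 in the replicate 2 list. Single arms differed at 10 to 20 kb, with 1.33 on X, 1.24 on 3R, 1.10 on 3L, 1.08 on 2L and 0.702 on 2R.

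**Figure D5:**
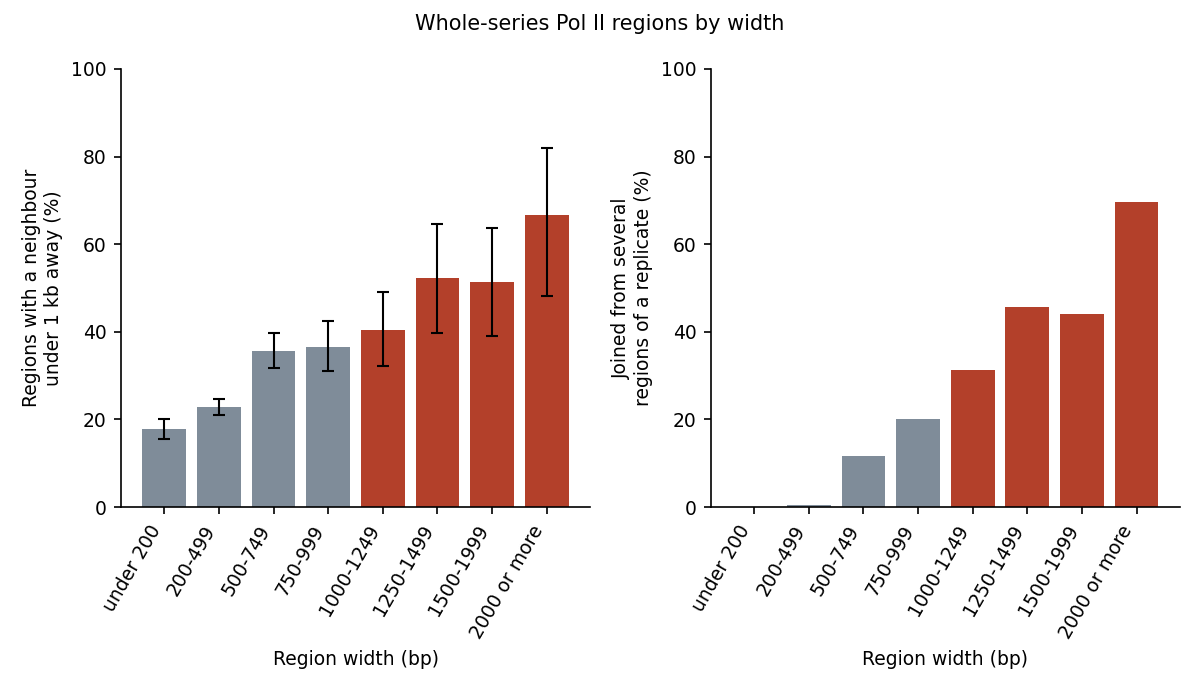
Percent of whole-series regions with a neighbour under 1 kb away (left, bars with exact 95% binomial intervals) and percent joined from several regions of a replicate (right) in 8 width classes in bp, with classes of 1000 bp or more in red and narrower ones in grey. The class of 2000 bp or more has the highest shares, 66.7% and 69.7%.

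By width class, the share with a neighbour under 1 kb away was 17.7% under 200 bp, 22.8% at 200 to 499 bp, 35.6% at 500 to 749 bp and 36.6% at 750 to 999 bp. In the broad classes it was 40.4% at 1000 to 1249 bp, 52.2% at 1250 to 1499 bp, 51.5% at 1500 to 1999 bp and 66.7% at 2000 bp or more. Intervals of the classes on either side of the limit overlapped (31.1 to 42.5% just below and 32.3 to 49.0% just above), so the difference across the limit was within counting error. Regions wide in both replicates had such a neighbour in 63 of 104 cases (60.6%, 50.5 to 70.0%), and those wide in replicate 2 only in 70 of 172 (40.7%, 33.3 to 48.4%).

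A broad region's nearest neighbour was itself broad in 45 of 309 cases (14.6%, 95% interval 10.8 to 19.0%), against 308 of 4056 for narrower regions (7.59%, 6.80 to 8.45%). Within 10 kb of another broad region lay 78 of 310 (25.2%, 20.4 to 30.4%), in 31 groups of 2, 4 groups of 3 and 1 group of 4, and 232 lay alone. No such share was worked out for narrower regions. Broad regions had more neighbours of any width within 10 kb, so this count does not separate grouping of broad regions and general crowding. The group of 4 was on 3L (7348579 to 7364048, 15470 bp) and held widths of 1239, 1032, 1892 and 1167 bp. Its members scored low: replicate 1 gave 1.66, 1.79, 1.85 and 2.37 and replicate 2 gave 1.37, 2.68, 2.26 and 2.64 in that order, and none ranked above percentile 35.5.

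The groups of 3 differed in how tightly they were packed. On 3R (27042643 to 27047776) gaps were 767 and 812 bp, with scores of 2.42, 3.67 and 2.56 in replicate 1 and 2.45, 3.33 and 3.07 in replicate 2. On 3R (12066263 to 12081314), 5 narrower regions lay between the 3 broad ones, which scored 3.34, 1.60 and 1.93 in replicate 1 and 4.67, 1.25 and 2.29 in replicate 2. Groups on 2R (15329718 to 15337900) and 2L (6477756 to 6490084) had 3 broad regions each, with scores of 2.12, 3.27 and 2.71 and of 3.27, 3.86 and 2.21 in replicate 1. In replicate 2 they had 2.35, 5.58 and 2.27 and 4.89, 3.999 and 3.22. High and low scores thus occurred side by side within groups.

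Some broad regions were isolated. The 5 farthest from any other region were on X (22414326 to 22415994, 355034 bp away), 2R (674669 to 675741, 271266 bp), 2R (15998673 to 16003844, 145512 bp), 2L (22018895 to 22019985, 101816 bp) and 3R (24161126 to 24162239, 81609 bp). The third of these is the widest region of the list, at percentile 54.5 with 3.15 in replicate 1 and 2.96 in replicate 2. The other 4 ranked below percentile 10 on their chromosomes, with scores between 1.42 and 2.16 in either replicate.

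Broad regions lay on every chromosome arm, with 306 of the 310 on X, 2L, 2R, 3L, 3R and 4. They were 8.05% of regions on 3R (72 of 894, 95% interval 6.35 to 10.0%), 7.75% on 2L (62 of 800, 5.99 to 9.83%), 7.25% on 3L (67 of 924, 5.66 to 9.12%), 6.60% on X (46 of 697, 4.87 to 8.71%) and 6.13% on 2R (54 of 881, 4.64 to 7.92%). The intervals overlapped in all 10 pairs of these 5 arms. Among replicate 1 regions the share on the 5 arms was lowest on X at 1.43% (13 of 910, 0.763 to 2.43%), and 3R had the most with 34 of 1173 (2.02 to 4.03%). Among replicate 2 regions X was again lowest of the 5 arms, at 2.99% (45 of 1505, 2.19 to 3.98%), and 3R highest, at 3.82% (68 of 1780, 2.98 to 4.82%), while chromosome 4 had 2.67% (4 of 150, 0.731 to 6.69%). Broad regions wide in both replicates were 10 of 46 on X, 18 of 62 on 2L, 21 of 67 on 3L, 28 of 72 on 3R and 23 of 54 on 2R.

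The small chromosome 4 held 5 broad regions of 51 (9.80%, 3.26 to 21.4%). Its widest, at 527471 to 529357 with 1887 bp, scored 1.82 in replicate 1 and 3.14 in replicate 2, and both covered 37.0% of it. The other 4 lay at 86722 to 87901 (4.46 and 6.09), 577873 to 578895 (2.87 and 3.76), 676854 to 678275 (2.70 and 4.73) and 1053503 to 1055066 (4.39 and 5.50). All 5 scored higher in replicate 2, as did 34 of the 46 narrower regions of chromosome 4 (73.9%). On X the widest was 2529 bp (656789 to 659317), with 3.06 and 4.04.

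Among heterochromatic scaffolds, which hold repeat-rich sequence near centromeres, 1 broad region lay on 2RHet (391213 to 392619, with 2.72 in replicate 1 and 4.76 in replicate 2) and 1 on 2LHet (167428 to 168729, 3.07 and 3.37). None of 14 regions on 3LHet, 18 on 3RHet or 9 on XHet was broad, which allows shares of up to 23.2%, 18.5% and 33.6% at the upper end of the exact interval.

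Along the 5 large arms, broad regions were 6.91% of the regions in the third nearest the centromere (89 of 1288, 5.59 to 8.43%), 6.67% in the middle (93 of 1395, 5.41 to 8.11%) and 7.87% nearest the telomere (119 of 1513, 6.56 to 9.34%), with overlapping intervals. In 116 windows of 1 Mb the median was 2 broad regions and 13 windows had none. The fullest, with 7 broad of 43 regions, was on 3L at 7000001 to 8000000, where the group of 4 lies. Counts of narrower and broad regions per window had a Spearman correlation of 0.22, a description over windows.

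A whole-series region spans the replicate regions joined in it. A wide replicate region that met the other replicate thus lies in a broad region by construction, which is no measure of agreement in width. Regions of 1000 bp or more in a replicate list nearly all fell inside a broad region of the whole-series list. In replicate 1, 1 of 124 did not, on 3L (827899 to 829719, 1821 bp, score 2.83). In replicate 2, 16 of 294 did not, with a median width of 1162 bp and a median score of 2.18. The widest of these were on U (5697125 to 5699222, 2098 bp, score 5.15), 2R (16197054 to 16198897, 1844 bp, 3.28), 2R (4787718 to 4789323, 1606 bp, 2.11), X (21194850 to 21196229, 1380 bp, 1.53) and 2L (4966530 to 4967812, 1283 bp, 2.13).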

How the data were processed

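Pol II ChIP-seq region lists of 2 extractions and of the whole series were analysed; per the labels, libraries were size-selected at 150 to 200 bp and read single-end for 36 nt. Per the file headers the lists are on FlyBase r5.1 and name PeakSeq. The sources used here do not state the aligner, the filters, the control or the threshold of the caller. The deposited score has no name or unit in the files and is the authors' own value per region. Lists hold only what passed the caller, so uncalled stretches are not shown to lack Pol II, and unequal depth could change widths.

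Replicate regions were assigned to a whole-series region by at least 1 bp of overlap, and a replicate's score for it is the mean over those regions. Percentiles use the deposited whole-series score. Tables were made with pandas 2.3.3 and NumPy 2.4.6 in Python 3.11.15, intervals and correlations with SciPy 1.17.1 and plots with Matplotlib 3.10.9, and the overlap and gap routines were tested on simulated data. Named regions are the widest per chromosome, the 10 of highest percentile, and the extremes (3 or 5 each) of score ratio, pieces, cover, groups, isolation and width limit. Widest regions in replicates outside broad ones were also named. The members and lists were chosen with earlier results of these data known. Alternatives changed the width limit, the joining, the score summary, the distance measure and the replicate list.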

Additional observations from a re-analysis of the deposited data

How the results depend on the processing

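Of 45 alternatives, 26 kept a value within the 95% interval of the reported value (counts within 1.5 times) and 19 did not. The number of broad regions, 310, was 602 at a limit of 750 bp, 101 at 1500 bp, 33 at 2000 bp, 127 by bases covered by both replicates, and 124 to 294 in a replicate list alone, the lower without replicate 2. At 1500 bp, 52.5% were joined, both replicates covered a median of 79.6%, the median percentile was 63.6, the median gap was 764 bp, and 5.94% lay within 10 kb of another. With single regions of each replicate only, both covered 81.3% and 18.7% lay within 10 kb of another, which became 32.6% within 20 kb for all broad regions. The median percentile was 54.8 by the replicate 1 score and 65.4 to 76.5 in a replicate list alone, so the rank of broad regions near the middle of their chromosome did not hold there. By the replicate 2 score it was 47.9, against 50.3 in narrower regions, below them. The median gap was 2204.5 bp between centres (6144.25 bp for narrower regions) and 519.5 to 532.5 bp in a replicate list alone. Broad regions kept shorter gaps than narrower ones in 6 of 6 alternatives, more joining in 2 of 2 and, pooled over widths, more shared cover in 2 of 2. Shared cover was not higher in every broad width class. Score agreement pooled over all widths was higher in 5 of 5, although not in every width class. The score ratio stayed lower in 4 of 5, and at 1500 bp its log2 median was 0.21 in broad and 0.20 in narrower regions. The cause of these shifts was not tested. No paired analysis was possible because each result comes from a single ChIP list per extraction and the inputs were not analysed here. Depth is unknown, so a wider call in replicate 2 and deeper sequencing cannot be told apart.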
